A study of Mus musculus with 4 samples.

Results

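Genes of fatty acid oxidation, ketone body metabolism and PPAR-alpha targets were followed in cells cut surgically from the surface of the mouse fetal liver. A list of 35 genes was taken, and a gene was tested where a probe set bearing its symbol alone was called Present on 2 or more of the 4 arrays. A usable probe set was found for 33 of them, and 32 of the 11656 genes tested in all were of this list. Of the 32, 31 had their chosen probe set Present on all 4 arrays. The exception was Crat. Fgf21 was called Absent on every array, and Acsl1 and Ucp2 were not analysed here.

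One genotype was p57-/- (the labels also write Kip2 -/-), which lacks the cyclin-dependent kinase inhibitor made from Cdkn1c, and it was set against wild-type p57+/+. Both genotypes were C57BL/6 embryos at embryonic day 17.5, and each gave 2 samples of mesothelial and submesothelial liver cells, 1 in experiment 1 and 1 in experiment 2. Each sample was hybridised to 1 single-colour Affymetrix array. No treatment is given for either genotype, and the labels do not say how many embryos a sample held, so a p-value here measures only the spread between these samples, part of which may be technical.

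Cdkn1c gave 7.79 and 7.28 in p57-/-, Absent on both arrays, against 10255 and 9866 in p57+/+, and it was the single probe set past the threshold of an adjusted p of 0.05 in limma (0.00439% of probe sets were lower and 0 higher). Between 48.5% and 50.1% of probe sets were Present on each array. The samples were not of matched sex. Xist, expressed from the inactive X chromosome, was at 7889 and 6412 in p57-/-, and at 12199 and 86.7 in p57+/+, while the Y-linked gene Eif2s3y was at 966 and 904 in p57-/-, and at 2.56 (Absent) and 1734 in p57+/+. Xist was called Present on all 4 arrays, at a far lower signal in p57+/+ replicate 2 than in the other samples. Both p57-/- samples thus gave high signals of Xist and Eif2s3y together, which neither p57+/+ sample did. All 10 mesothelial markers looked for were tested, and so were 8 of 10 hepatocyte markers. All 18 were Present on all 4 arrays, so hepatocyte transcripts were measured beside those of the surface layers. In such mixed samples, fewer cells of a type and less RNA per cell cannot be told apart.

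Mitochondria burn long-chain fatty acids after these have been joined to carnitine at the outer membrane, carried through the inner membrane and rejoined to coenzyme A inside. A repeating set of reactions then cuts the chain down to acetyl-CoA, which the liver can turn into ketone bodies. PPAR-alpha is a nuclear receptor that binds fatty acids, pairs with RXR on DNA and switches on many of these enzymes. The pathway is best known from the liver around birth and in fasting, when fat replaces glucose as the main fuel.

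Of the 32 tested genes, 29 had a higher mean log2 signal in p57-/- (28 after quantile normalization), beside 52.6% of all genes. The count ran from 25 to 30 when 1 sample was left out. The 6 genes with the largest log2 changes were Pdk4, Angptl4, Cpt1a, Ppargc1a, Plin5 and Ppara. No gene of the list passed the test over all probe sets (limma, 0 of 32 in either direction, beside 0.00858% of all genes). The lowest adjusted p was 0.519, for Pdk4. At an unadjusted p under 0.05, 9 of the 32 were higher in p57-/- and 0 lower, beside 4.7% higher and 4.07% lower over all genes. With a log2 change of at least 0.5 there were 5 higher and 0 lower, beside 4.72% higher and 4.93% lower over all genes. The 9 at an unadjusted p under 0.05 were Ppara, Ppargc1a, Cpt1a, Slc25a20, Acadvl, Acadl, Plin5, Angptl4 and Pdk4. Without p57-/- replicate 1 the 9 became 5. Both p57-/- arrays were above both p57+/+ arrays for 20 of the 32 genes (62.5%), beside 21.7% of all genes. They were below them for 1, beside 19.0%.

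By the difference within each experiment, 24 of the 32 genes were higher in p57-/- in both, which is 75.0% of them beside 29.6% of all genes. Crat was lower in both, beside 26.7% of all genes, and 7 genes went opposite ways. The fitted log2 changes ran from -0.46 to 0.93 with a median of 0.16, while the median over all genes was 0.02. The list's median difference was 0.21 in experiment 1 and 0.11 in experiment 2, beside 0.03 and -0.0047 for all genes. The difference was larger in experiment 1 for 24 of the 32 genes, and for 6145 of all 11656. With all probe sets of the list counted, 50 of the 55 tested were higher and 5 lower in p57-/-. This count reads some genes repeatedly, since 15 of the 32 had 2 or more tested probe sets. No share over all probe sets was taken to set beside it, and by gene 52.6% of all were higher. The genes were chosen with results of these data known, so these counts describe the list and were not tested.

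**Figure D1:**
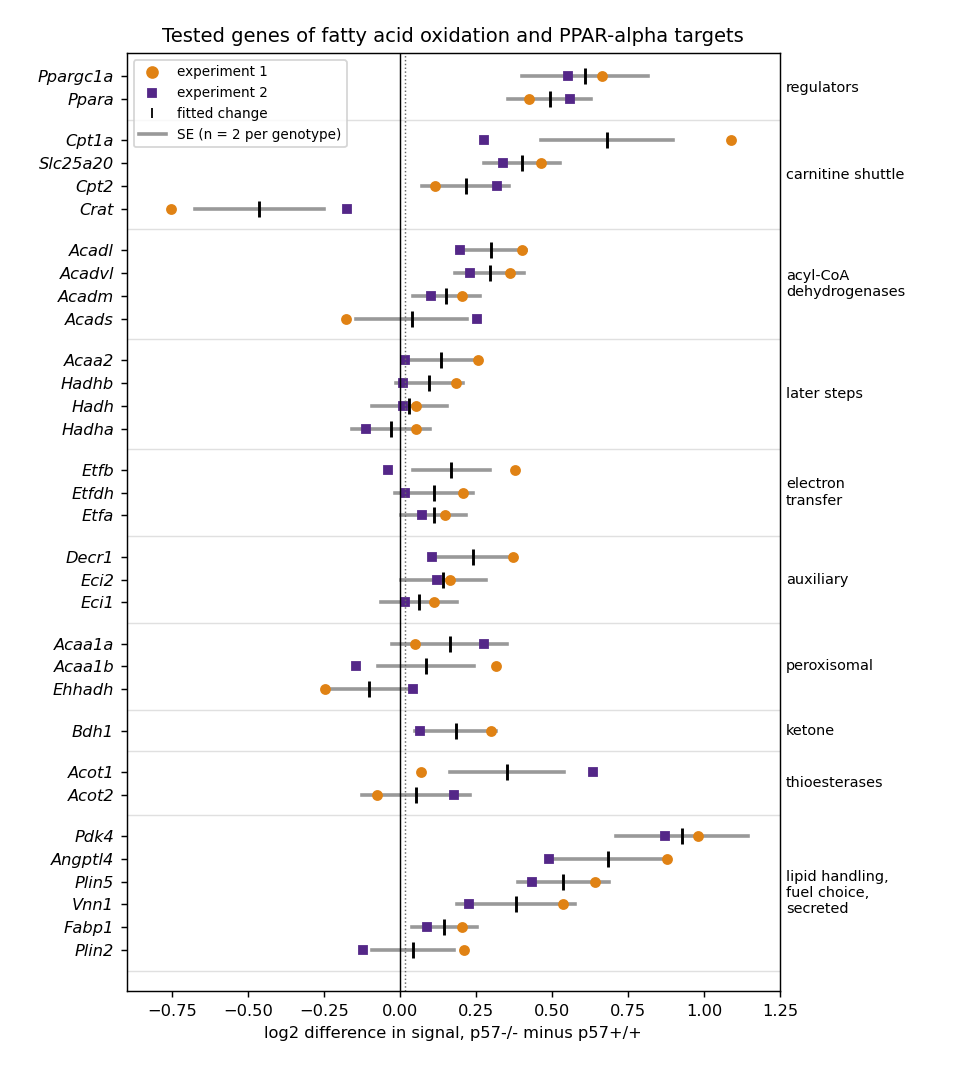
Log2 difference in MAS5 signal between p57-/- and p57+/+ for the 32 tested genes, grouped by role, with experiment 1 as circles, experiment 2 as squares, the fitted change as a black tick and its SE as a grey bar (n = 2 per genotype); the dotted line is the median of all genes. Of the fitted changes, 29 lie above 0 (28 after quantile normalization, where Hadh also turns), from 0.03 for Hadh to 0.93 for Pdk4. With 1 sample left out, 25 to 30 lie above 0.

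The 2 regulators of the list were both higher in p57-/-. Ppara, which encodes the receptor itself, gave 1512 and 1572 in p57-/-, against 1127 and 1067 in p57+/+. The genotypes did not overlap and the arrays of each lay close together, with a log2 change of 0.49 (SE 0.14, limma adjusted p = 0.549). All 3 Ppara probe sets were higher. One of the others gave 1272 and 1155 in p57-/-, against 694 and 731 in p57+/+, for a fitted log2 change of 0.77 (SE 0.15, limma adjusted p = 0.519). The third gave 980 and 960 in p57-/-, against 679 and 939 in p57+/+, so that its genotypes were separated by little in experiment 2.

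Ppargc1a encodes PGC-1-alpha, a coactivator that works with PPAR-alpha and drives mitochondrial and oxidative genes. Its brightest probe set gave 1058 and 759 in p57-/-, against 668 and 517 in p57+/+. Experiment 1 was the higher in both genotypes, and the log2 change was 0.61 (SE 0.21, limma adjusted p = 0.573). All 5 Ppargc1a probe sets were higher in p57-/- at the mean, with log2 changes from 0.37 to 0.91. The probe set at 0.37 gave 597 and 411 in p57-/-, against 353 and 419 in p57+/+. Its genotypes overlapped, with a difference of -0.03 in experiment 2. Ppargc1b, which encodes the related coactivator PGC-1-beta and belongs to the wider pathway list described further on, gave 615 and 475 in p57-/-, against 371 and 295 in p57+/+. Its differences were near equal, 0.73 in experiment 1 and 0.69 in experiment 2, with a log2 change of 0.71 (SE 0.21, limma adjusted p = 0.549).

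Among genes of the carnitine shuttle, Cpt1a, which encodes the liver form of the outer-membrane carnitine palmitoyltransferase and sets the rate of entry, gave 1546 and 957 in p57-/-, against 728 and 790 in p57+/+. With this probe set, its brightest, the genotypes did not overlap. The excess lay mostly in experiment 1, at 1.09 on the log2 scale beside 0.28 in experiment 2. The fitted log2 change was 0.68 (SE 0.22, limma adjusted p = 0.549). All 3 Cpt1a probe sets were higher, but in the others the genotypes overlapped. One gave 800 and 625 in p57-/-, against 685 and 377 in p57+/+, with 0.23 in experiment 1 and 0.73 in experiment 2. The last gave 456 and 207 in p57-/-, against 254 and 191 in p57+/+. Without p57-/- replicate 2, where 0.969% of all probe sets passed, Cpt1a passed at 1.03 (limma adjusted p = 0.0236), and without p57-/- replicate 1 it was at 0.33.

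Slc25a20, the carrier that exchanges acylcarnitine for carnitine across the inner membrane, gave 3229 and 2950 in p57-/-, against 2343 and 2334 in p57+/+. With this probe set the p57+/+ arrays were nearly equal and both p57-/- arrays stood above them. The log2 change was 0.40 (SE 0.12, limma adjusted p = 0.549). The other Slc25a20 probe set gave 1174 and 1022 in p57-/-, against 930 and 1008 in p57+/+. Its log2 change was smaller, 0.18 (SE 0.15), with a difference of only 0.02 in experiment 2. Cpt2, which re-forms acyl-CoA inside the mitochondrion, gave 1413 and 1653 in p57-/-, against 1307 and 1326 in p57+/+. That difference of 0.22 (SE 0.14) was no larger than the spread of the p57-/- arrays. Crat, the carnitine acetyltransferase for short chains, was the gene with the lowest log2 change. Its brightest probe set gave 327 and 476 in p57-/-, called Absent on both arrays, against 552 and 537 in p57+/+. That was 1.38-fold lower by the fitted log2 change of -0.46 (SE 0.21, limma adjusted p = 0.645). Another Crat probe set, Present on all 4 arrays, gave 378 and 336 in p57-/-, against 319 and 388 in p57+/+, with overlapping genotypes, so the probe sets of Crat disagreed.

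**Figure D2:**
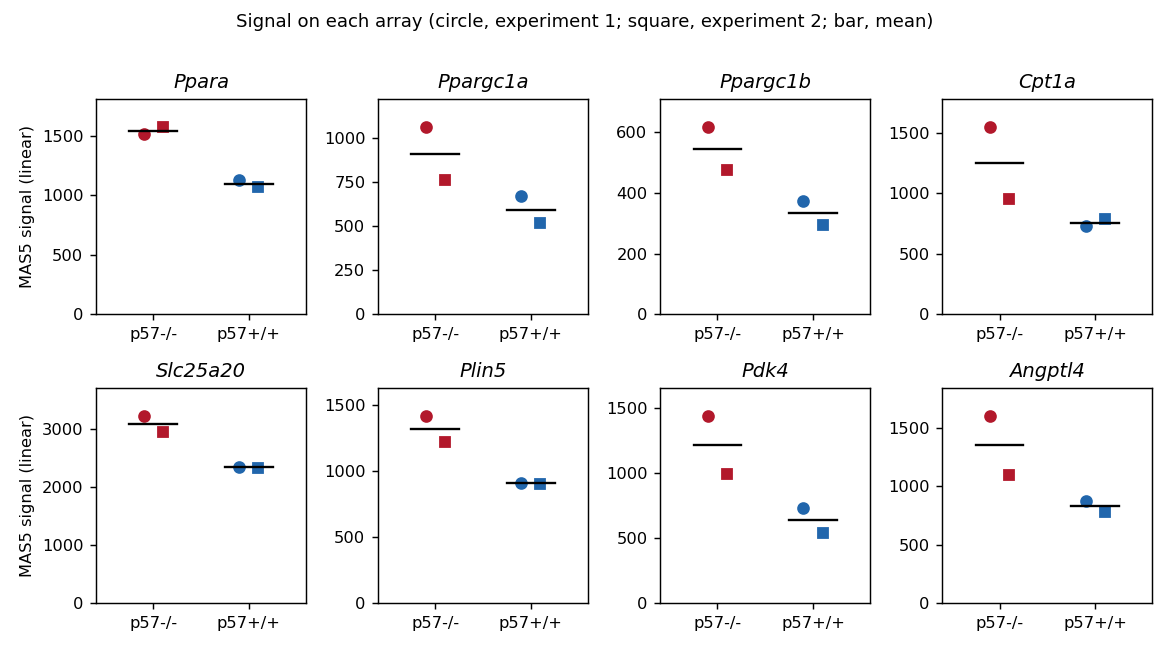
Linear MAS5 signal on each array for 8 genes, with p57-/- left of p57+/+, experiment 1 as circles, experiment 2 as squares and the mean of each genotype as a bar. In each of the 8 panels both p57-/- points lie above both p57+/+ points, and for Cpt1a, Pdk4 and Angptl4 the p57-/- point of experiment 1 is well above that of experiment 2.

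The 6 tested genes of lipid handling, fuel choice and secreted targets ranged from 0.04 for Plin2 to 0.93 for Pdk4 on the log2 scale. Pdk4, a kinase that shuts off pyruvate dehydrogenase and so spares glucose, gave 1436 and 988 in p57-/-, against 728 and 539 in p57+/+. The ratio was close to the same in both experiments, at 0.98 and 0.87 on the log2 scale, and the fitted change was 0.93, a 1.90-fold higher signal (SE 0.22, limma adjusted p = 0.519). Angptl4, a secreted inhibitor of lipoprotein lipase, gave 1606 and 1101 in p57-/-, against 874 and 785 in p57+/+, for a fitted log2 change of 0.68 (SE 0.19, limma adjusted p = 0.549). Both genes passed without p57-/- replicate 2, Pdk4 at 1.20 (limma adjusted p = 0.0270) and Angptl4 at 0.96 (limma adjusted p = 0.0318). Without p57-/- replicate 1 they were at 0.66 and 0.41 and did not pass.

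Plin5 coats lipid droplets and ties them to mitochondria in oxidative tissues. It gave 1420 and 1220 in p57-/-, against 911 and 903 in p57+/+, with a log2 change of 0.54 (SE 0.15, limma adjusted p = 0.549). The other Plin5 probe set was also higher at the mean, at 719 and 530 in p57-/-, against 408 and 522 in p57+/+. Its difference was 0.82 in experiment 1 and only 0.02 in experiment 2. Plin2, the general droplet coat protein of liver, gave 4851 and 4816 in p57-/-, against 4198 and 5248 in p57+/+. Here the p57-/- arrays lay between the p57+/+ arrays. Fabp1, the abundant fatty acid-binding protein of hepatocytes, gave 32874 and 29688 in p57-/-, against 28553 and 27937 in p57+/+, for a fitted log2 change of 0.15 (SE 0.11). Vnn1, a pantetheinase that recycles a coenzyme A precursor, gave 995 and 712 in p57-/-, against 686 and 609 in p57+/+. With this probe set the genotypes did not overlap, with a log2 change of 0.38 (SE 0.19, limma adjusted p = 0.666). With the other Vnn1 probe set they overlapped, at 462 and 266 in p57-/-, against 251 and 286 in p57+/+. Fgf21, a hepatic hormone gene induced by PPAR-alpha in fasting, gave 55.0 and 11.9 in p57-/-, against 57.8 and 2.77 in p57+/+, all Absent, and was not well above background.

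Promoter sequences are shown for 3 of the genes with the larger differences, Cpt1a, Plin5 and Pdk4, and for Fabp1, whose difference was small. PPAR-alpha with RXR binds direct repeats of AGGTCA with 1 base between them, and capitals mark each AGGTCA or, where it lies on the other strand, TGACCT. The windows run from 250 bases before to 50 after the gene start, 5′ to 3′ on the gene's strand, and come from RefSeq on GRCm38.p6: Cpt1a at chr19:3323051-3323350 (plus strand), Plin5 at chr17:56117499-56117798 (minus strand), Pdk4 at chr6:5496229-5496528 (minus strand) and Fabp1 at chr6:71199629-71199928 (plus strand).
Cpt1a: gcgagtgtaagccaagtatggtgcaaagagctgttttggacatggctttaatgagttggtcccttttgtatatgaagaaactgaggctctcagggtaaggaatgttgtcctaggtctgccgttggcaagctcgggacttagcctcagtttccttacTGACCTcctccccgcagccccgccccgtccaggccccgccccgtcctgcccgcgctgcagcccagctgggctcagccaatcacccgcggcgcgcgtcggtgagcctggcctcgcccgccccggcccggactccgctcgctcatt
Plin5: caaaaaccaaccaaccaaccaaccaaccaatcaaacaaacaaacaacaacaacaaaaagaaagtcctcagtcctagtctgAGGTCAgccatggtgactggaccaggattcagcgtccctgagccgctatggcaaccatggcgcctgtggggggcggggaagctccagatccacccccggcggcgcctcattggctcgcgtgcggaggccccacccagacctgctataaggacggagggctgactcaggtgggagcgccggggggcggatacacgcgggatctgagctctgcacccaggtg
Pdk4: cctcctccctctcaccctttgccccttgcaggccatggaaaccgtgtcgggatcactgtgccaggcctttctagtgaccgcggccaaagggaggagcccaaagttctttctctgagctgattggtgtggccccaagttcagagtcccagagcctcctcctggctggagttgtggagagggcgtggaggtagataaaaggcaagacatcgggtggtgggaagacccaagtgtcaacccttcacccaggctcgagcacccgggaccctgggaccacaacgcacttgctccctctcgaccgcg
Fabp1: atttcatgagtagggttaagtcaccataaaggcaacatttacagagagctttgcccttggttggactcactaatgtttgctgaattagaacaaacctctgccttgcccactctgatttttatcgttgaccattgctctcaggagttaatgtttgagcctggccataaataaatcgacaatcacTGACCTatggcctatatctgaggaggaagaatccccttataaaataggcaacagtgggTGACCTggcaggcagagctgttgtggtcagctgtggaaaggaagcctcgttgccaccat

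The AGGTCA copy began 94 bases before the gene start in Cpt1a, 170 before it in this Plin5 window, and 67 and 9 before it in Fabp1, and no copy lay in the Pdk4 window. Of the 35 genes, 30 had a window in the RefSeq table, 33 windows in all. Some copy of AGGTCA on either strand lay in 7 of these 33 (21.2%), beside 16.3% of all 32851 windows. The full repeat, 2 such copies in the same direction with 1 base between them, on either strand, lay in 0 of the 33. It lay in 13 of all windows (0.0396%), too few for the 0 to tell the list from other genes. Only exact copies were looked for. A match is a run of letters and does not show that a factor binds there.

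The acyl-CoA dehydrogenases take the first step of each round of oxidation and divide the work by chain length. Acadvl, for very long chains, gave 6615 and 6186 in p57-/-, against 5151 and 5277 in p57+/+, for a fitted log2 change of 0.30 (SE 0.11, limma adjusted p = 0.606). Acadl, for long chains, gave 11948 and 11739 in p57-/-, against 9042 and 10232 in p57+/+, also at 0.30 (SE 0.11, limma adjusted p = 0.601). In both genes the genotypes were separate, at 1.23-fold higher signals. Acadm, for medium chains, gave 18896 and 19777 in p57-/-, against 16416 and 18441 in p57+/+, at 0.15 (SE 0.11). Acads, for short chains, gave 1516 and 2215 in p57-/-, against 1716 and 1858 in p57+/+. The p57-/- arrays of Acads lay on either side of the p57+/+ arrays, lower in experiment 1 and higher in experiment 2.

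The later steps of the mitochondrial cycle and the chain that takes up its electrons differed by less. Hadha and Hadhb encode the subunits of the trifunctional protein, Hadh the short-chain hydroxyacyl-CoA dehydrogenase and Acaa2 the thiolase. Hadh gave 31120 and 35748 in p57-/-, against 30013 and 35535 in p57+/+. The experiments differed more than the genotypes, and its log2 change of 0.03 (SE 0.12) turned to -0.07 after quantile normalization. Hadha, one of the 3 genes with a lower mean, gave 2492 and 2489 in p57-/-, against 2402 and 2693 in p57+/+, at -0.03 (SE 0.13). Hadhb was at 0.10 (SE 0.11) with its brightest probe set and at -0.09 (SE 0.13) with the other tested one. Acaa2 was at 0.14 (SE 0.11), with all 3 probe sets higher.

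Electrons from the dehydrogenases pass to the flavoprotein encoded by Etfa and Etfb and on to the respiratory chain through Etfdh. Etfa gave 10487 and 10381 in p57-/-, against 9463 and 9868 in p57+/+, for a fitted log2 change of 0.11 (SE 0.11). Its genotypes were separate by a margin smaller than the error. Etfb was at 0.17 (SE 0.13) and Etfdh at 0.11 (SE 0.13). The auxiliary enzymes for unsaturated chains, the isomerases of Eci1 and Eci2 and the dienoyl-CoA reductase of Decr1, were at 0.06 (SE 0.12), 0.14 (SE 0.14) and 0.24 (SE 0.12). Of these, Decr1 gave 6035 and 5600 in p57-/-, against 4666 and 5207 in p57+/+.

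Peroxisomal oxidation, which shortens chains too long for mitochondria, gave no shared direction. Acaa1b, a peroxisomal thiolase gene, gave 2803 and 2772 in p57-/-, against 2254 and 3067 in p57+/+, so the p57-/- arrays lay between the others. Ehhadh, the peroxisomal bifunctional enzyme and a PPAR-alpha target in mouse liver, gave 1014 and 1178 in p57-/-, against 1204 and 1144 in p57+/+, at -0.10 (SE 0.15). Acaa1a was at 0.16 (SE 0.19). Acaa1a and Acaa1b are close copies, so their probe sets may share targets.

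Bdh1, which interconverts the ketone bodies acetoacetate and hydroxybutyrate, gave 8359 and 8949 in p57-/-, against 6798 and 8544 in p57+/+. The genotypes overlapped, and the log2 change was 0.18 (SE 0.13). The acyl-CoA thioesterase gene Acot1 gave 1112 and 1136 in p57-/-, against 1062 and 731 in p57+/+. Most of its log2 change of 0.35 (SE 0.19) came from experiment 2, which had 0.64 beside 0.07 in experiment 1. Its mitochondrial relative Acot2 was at 0.05 (SE 0.18). These genes are also close copies, and a probe set of one may read the other.

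A wider list of 54 pathway genes, which shares no gene with the first, gave 43 tested genes with a median log2 change of 0.08. None passed over all probe sets (limma, 0 higher and 0 lower). At an unadjusted p under 0.05, 5 were higher and 3 lower, beside 4.7% and 4.07% of all genes. Of the 43, 16 were higher in p57-/- in both experiments (37.2%, beside 29.6% of all genes) and 9 were lower in both (beside 26.7%). Higher beside Ppargc1b were Sirt3, a mitochondrial deacetylase gene (0.48, SE 0.17), Creb3l3, a liver transcription factor gene that works with PPAR-alpha (0.42, SE 0.16), Slc27a2, a fatty acid transporter and very long-chain acyl-CoA synthetase gene (0.36, SE 0.14), and Cpt1c, the brain-type relative of Cpt1a (0.84, SE 0.36). Sirt3 gave 1006 and 793 in p57-/-, against 659 and 623 in p57+/+, with separate genotypes. Lower were the acyl-CoA synthetase gene Acsl5 (-0.40, SE 0.12), the peroxisomal thioesterase gene Acot8 (-0.44, SE 0.18) and Acacb.

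Acacb makes the malonyl-CoA that inhibits carnitine palmitoyltransferase at the mitochondrial surface. It gave 74.0 and 53.4 in p57-/-, Absent on both arrays, against 301 and 401 in p57+/+. Acacb was 5.52-fold lower by the fitted log2 change of -2.47 (SE 0.30, limma adjusted p = 0.143). It passed without p57-/- replicate 1 (limma adjusted p = 0.0143) and without p57-/- replicate 2 (limma adjusted p = 0.0104), but not without p57+/+ replicate 1 (limma adjusted p = 0.290) or p57+/+ replicate 2 (limma adjusted p = 0.632).

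Lists of related metabolism were set beside the oxidation genes as descriptions, and 0 of their genes passed over all probe sets (limma). With the experiment number as a block, Acacb (limma adjusted p = 0.00272) and Scd1 (limma adjusted p = 0.00465) passed. The 24 tested genes of the tricarboxylic acid cycle and respiratory chain had a median log2 change of 0.04, with 11 higher and 5 lower in both experiments, beside 29.6% and 26.7% of all genes. Their range, from -0.31 to 0.17, was narrower than that of the oxidation genes. The 12 genes of lipogenesis, Acacb among them, had a median of -0.35, and 11 of them were lower in p57-/- in both experiments, beside 26.7% of all genes. Of these, Acacb and Thrsp were Absent on both p57-/- arrays. They passed the detection filter through p57+/+ alone, so the filter favoured their lower direction. Scd1, the stearoyl-CoA desaturase gene, gave 2409 and 6331 in p57-/-, against 10145 and 11109 in p57+/+, for a fitted log2 change of -1.44 (SE 0.34). Without p57-/- replicate 2 Scd1 passed at -2.14 (limma adjusted p = 3.5e-05), and without p57-/- replicate 1 it was at -0.75 and did not pass (limma adjusted p = 0.167). Acly, which supplies cytosolic acetyl-CoA, was at -0.65 (SE 0.16). It passed without p57-/- replicate 2, at -0.90 (limma adjusted p = 0.0182), and without p57-/- replicate 1 it was at -0.40 and did not pass (limma adjusted p = 0.736). Neither Scd1 nor Acly passed when a p57+/+ sample was left out.

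Gluconeogenesis and urea cycle genes had a median of 0.15 over 14 tested, but the experiments differed, with a median of 0.48 in experiment 1 and -0.01 in experiment 2. Hepatocyte markers behaved likewise, with medians of 0.21 in experiment 1 and -0.18 in experiment 2 over 8 tested genes. Their summed signal was 362272 and 342577 in p57-/-, against 309717 and 382545 in p57+/+, with overlapping genotypes. That sum includes the brightest probe set of each array, Apoa1 on both p57-/- arrays and p57+/+ replicate 1, and Ttr on p57+/+ replicate 2. Whether signals this high still follow the amount of RNA was not tested. The median of the oxidation list was 0.21 in experiment 1 and 0.11 in experiment 2. Erythroid markers were lower in p57-/- at the median in both experiments. Their summed signal over 9 tested genes was 71142 and 94598 in p57-/-, against 105477 and 110487 in p57+/+, with a median log2 change of -0.50. Mesenchymal and stellate cell markers were mostly higher in p57-/-. Their sum over 9 tested genes was 97721 and 90255 in p57-/-, against 76411 and 86623 in p57+/+. The median log2 change was 0.21, and 7 of the 9 (77.8%) were higher in both experiments, beside 29.6% of all genes. That share was near the 75.0% of the oxidation list. Granulocyte markers summed to 197946 and 206385 in p57-/-, against 184393 and 186319 in p57+/+, with a median log2 change of 0.11. All 7 tested genes were higher at the mean, beside 52.6% of all genes, and 5 of them in both experiments, beside 29.6%. Mesothelial markers summed to 12492 and 14900 in p57-/-, against 10644 and 13509 in p57+/+, with overlapping genotypes. Of the 10 tested, 4 were higher and 4 lower in both experiments, beside 29.6% and 26.7% of all genes. At an unadjusted p under 0.05 (limma), 4 were higher and 1 lower, beside 4.7% and 4.07% of all genes. Endothelial markers had medians of 0.47 in experiment 1 and -0.12 in experiment 2, and macrophage markers 0.29 and -0.19. The part of these shifts in the differences of the oxidation genes was not tested.

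**Figure D3:**
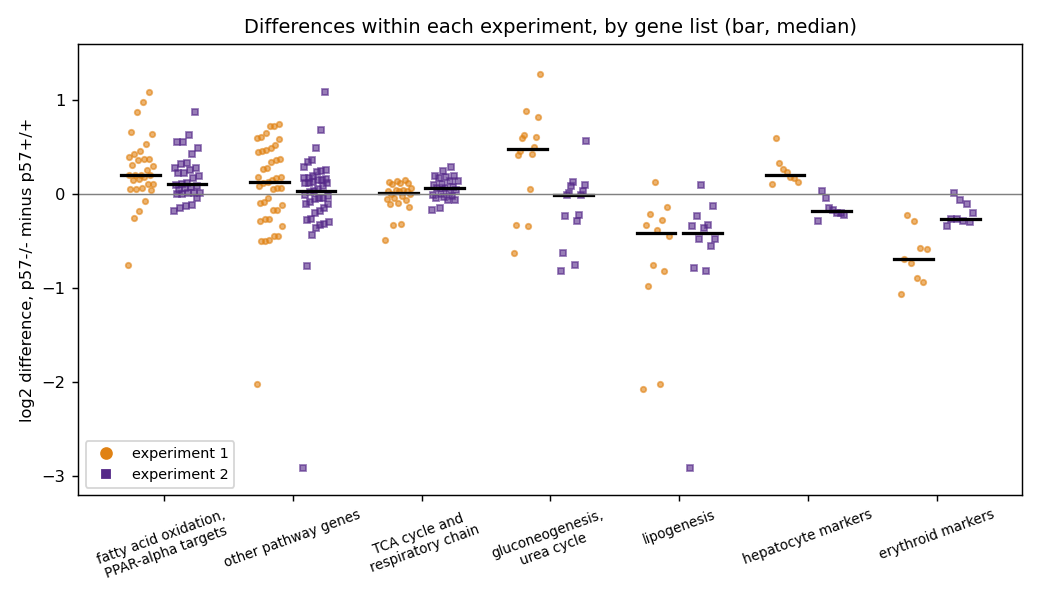
Log2 difference between p57-/- and p57+/+ for each tested gene of 7 lists, with experiment 1 as circles, experiment 2 as squares and the median of each as a bar. The oxidation list has a median above 0 in both experiments (0.21 and 0.11), hepatocyte markers lie above 0 in experiment 1 and below it in experiment 2 at the median, and lipogenesis and erythroid markers lie below 0 in both.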

How the data were processed

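The authors deposited, for each of the 4 arrays, a MAS5 signal intensity per probe set on a linear scale, with a detection p-value and the Present, Marginal or Absent call drawn from it, as the deposited columns are headed per the file headers. MAS5 is named in the submitters' processing notes, without a version. The mean after trimming 2% at each end was 500.003 on every array, so each had been scaled to 1 target, which hides any change in total RNA.

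Signals were log2 transformed with no pseudocount. Of 45101 probe sets, 64 controls were left out and 22800 that were Present on at least 2 arrays were tested, with limma 3.58.1 in R 4.3.3 (lmFit, eBayes with a variance trend, no block). P-values were two-sided, and Benjamini-Hochberg adjustment ran over all of them, at a threshold of 0.05. Each log2 change gives p57-/- over p57+/+. Each gene was represented by its probe set of highest mean log2 signal. Symbols came from the platform annotation, which gave 34945 probe sets 1 symbol, 932 several and 9160 none. The fit was tested on simulated data. Acacb, Thrsp and the brightest Crat probe set were Absent on both p57-/- arrays, at signals above the lowest Present signal of those arrays. They passed the detection filter through the p57+/+ arrays alone. The fold given for Acacb and for Crat is that of the fitted change and is not a lower limit. The number of arrays limits precision.

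The genes, lists and rules were chosen with earlier results of these data known. Arrays were given in full for genes with an unadjusted p under 0.05 or a log2 change of at least 0.5 either way, for the brightest of each role, and for others chosen after their values were seen. Up to 10 genes of the wider pathway list and 3 of other lists could be named by the smallest p. Alternatives were a block on the experiment number, no variance trend, quantile and median scaling, other detection filters, a floor, a pseudocount of 16, the mean of a gene's probe sets, the deposited value table and leaving out each sample. Protein sequences were not used here.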

Additional observations from a re-analysis of the deposited data

How the results depend on the processing

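The median log2 change of the list, 0.16, stayed between 0.14 and 0.21 under all alternatives run, leaving out each sample included, while that of all genes stayed within 0.03 of 0. The count of genes higher in both experiments, 24, stayed within 1.5 times of that value. The count lower in both, 1, was 2 after quantile normalization and 0 with probe sets Present on all 4 arrays, where Crat was represented by another probe set and was at 0.017. Experiment numbers were not shown to pair the samples, since the deviations of same-numbered samples from their genotype means had a correlation of 0.00460 over probe sets. With the experiment number as a replicate block, 10 probe sets passed as higher and 20 as lower (0.132% in all), with 1 gene of the list among them, Pdk4 (limma adjusted p = 0.0385), and with Acacb and Scd1 of the compared lists. With probe sets Present on all 4 arrays 0 were lower, because Cdkn1c was not among them. Leaving out 1 sample in turn gave 1 to 98 probe sets higher and 1 to 123 lower, and 0 to 3 genes of the list, most without p57-/- replicate 2. The 9 genes of the list at an unadjusted p under 0.05 were 5 without the variance trend and 5 to 9 when samples were left out. In these fits the lone sample of a genotype is assumed to vary like the other genotype. Among single genes, Hadh was at -0.071 after quantile normalization. When samples were left out, the log2 change ran from -0.14 to 0.31 for Acaa1b, -0.24 to 0.31 for Acads, -0.10 to 0.20 for Acot2, -0.21 to 0.0053 for Ehhadh, -0.091 to 0.15 for Hadh, -0.11 to 0.052 for Hadha and -0.12 to 0.20 for Plin2, so these have no settled direction. The cause of these shifts was not tested. Leave-one-out ranges were 0.45 to 0.53 for Ppara, 0.37 to 0.85 for Ppargc1a, 0.33 to 1.03 for Cpt1a, 0.41 to 0.96 for Angptl4 and 0.66 to 1.20 for Pdk4.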

Other observations

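Among nuclear receptors and partners in the wider pathway list, Rxra, Ppard, Esrra and Sirt1 had smaller differences than Ppargc1b and Creb3l3 described above. Rxra, which encodes the partner of PPAR-alpha on DNA, gave 1268 and 1009 in p57-/-, against 1042 and 1071 in p57+/+. The p57-/- arrays lay on either side of the p57+/+ arrays, with a log2 change of 0.10 (SE 0.16). Ppard, the widely expressed relative of Ppara, gave 147 and 168 in p57-/-, against 130 and 141 in p57+/+, with a log2 change of 0.22 (SE 0.27). Esrra, a receptor that works with PGC-1 coactivators, gave 422 and 391 in p57-/-, against 304 and 393 in p57+/+, with overlapping genotypes. Sirt1, a deacetylase gene, was at -0.11 (SE 0.18).

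Cd36, a fatty acid uptake receptor gene, gave 2317 and 1555 in p57-/-, against 1610 and 1666 in p57+/+. Lpin1, a partner of PPAR-alpha and PGC-1-alpha, gave 4146 and 2440 in p57-/-, against 3274 and 2694 in p57+/+. In both genes the p57-/- sample of experiment 1 was the highest of the 4 and that of experiment 2 the lowest. Acat1, whose thiolase product feeds ketone body synthesis, gave 19944 and 20498 in p57-/-, against 16522 and 18483 in p57+/+, with separate genotypes and a log2 change of 0.21 (SE 0.11). Oxct1, which lets tissues outside the liver use ketone bodies, gave 2280 and 2193 in p57-/-, against 2561 and 1943 in p57+/+, with overlapping genotypes. These genes were picked from the wider pathway list after their values were seen. Of the 43 tested genes of that list, 16 were higher and 9 lower in both experiments. Among the lower were Pex11a (-0.30, SE 0.18), Slc27a5 (-0.26, SE 0.13) and Slc22a5 (-0.21, SE 0.18).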
